A study of Rattus norvegicus with 6 samples.

Results

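The organic anion and cation transporters are membrane carriers of the gene families Slc22, Slco and Slc47. They were followed here in kidney RNA of diabetic rats, with and without Shenqi Jiangtang Granule (SJG), a Chinese herbal preparation. Members were taken from the array annotation as the genes whose symbol starts with Slc22a, Slco or Slc47a, other than Slc22a2, Slc22a7 and Slco1a6. This gave 29 of the 18166 genes tested, each measured by 1 set of probes, called a transcript cluster. A further transcript cluster is annotated to both Slco1a1 and Slco1a5 and was not used. All rats were Sprague Dawley, labelled as 17 weeks of age and, by the paper's methods, male. By the same methods all were diabetic, in both groups, after 60 mg/kg streptozotocin, a toxin of the insulin-producing beta cells. The paper's abstract also names a high-fat diet for this model, which its methods do not mention. The 3 SJG arrays come from rats that took the granule by mouth at 800 mg/kg/day for 8 weeks, and the 3 diabetic arrays from rats given saline. The dose stands in the paper and not in the sample labels, which rats of the 6 per group were used is not given, and healthy kidney was not analysed here. Whether each array stands for a separate animal is not labelled, so the p-values describe only how these samples scatter, technical scatter included. A code in brackets ends each sample title and differs between the groups, its meaning is not stated, and what it stands for cannot be told apart from the treatment.

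Organic ion transporters move drugs, toxins, hormones and metabolites across epithelia, and the proximal tubule of the kidney is known for its dense set of them. On the blood side, OAT1 and OAT3 (Slc22a6 and Slc22a8) take up organic anions in exchange for dicarboxylates, while organic cation carriers bring in cations. On the urine side, MATE1 (Slc47a1) expels cations in exchange for protons, URAT1 (Slc22a12) recovers urate and OCTN2 (Slc22a5) recovers carnitine. The OATP carriers, encoded by Slco genes, transport bile acids, steroid conjugates, thyroid hormones and prostaglandins.

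Each value below is the log2 signal of a gene on 1 array. A fold change is the mean of the SJG arrays minus that of the diabetic arrays on this scale, with its standard error from limma. Markers of the labelled tissue were present, with log2 signals between 11.7 and 12.7 on every array for the proximal tubule genes Lrp2, Slc34a1 and Miox. Across all 36685 transcript clusters, array medians lay between 4.68 and 4.88, and the correlation of any pair of arrays was between 0.952 and 0.978 across transcript clusters. Signals of different genes come from different probes, so only differences between arrays are compared.

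Among the 29 transporters, 2 were higher and 1 was lower with SJG at the paper's thresholds, which ask for more than a 1.5-fold change and for p below 0.05 before adjustment. The higher genes were Slco1a3 and Slc22a22, and the lower one was Slco2a1. They make up 10.3% of the members, where 3.11% of all genes passed. By direction, 6.90% of the members and 0.991% of all genes were higher, and 3.45% of the members and 2.12% of all genes were lower. The remaining 26 did not pass. With limma, 0 of the 29 passed an adjusted p of 0.05 over all genes (lowest adjusted p = 0.752). By p before adjustment alone, 3 were higher (2.64% of all genes) and 1 was lower (3.6% of all genes). The comparison of each gene on its own, with equal variances (the unmoderated test), left 0 members past the paper's thresholds. Over all 18166 genes it left 76 higher and 77 lower. The median log2 fold change of the members was 0.09, against 0.002 over all genes, and 16 means were higher and 13 lower with SJG, where 50.3% of all genes were higher and 49.7% lower. In bulk tissue, fewer cells of a type and less RNA per cell cannot be told apart.

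**Figure D1:**
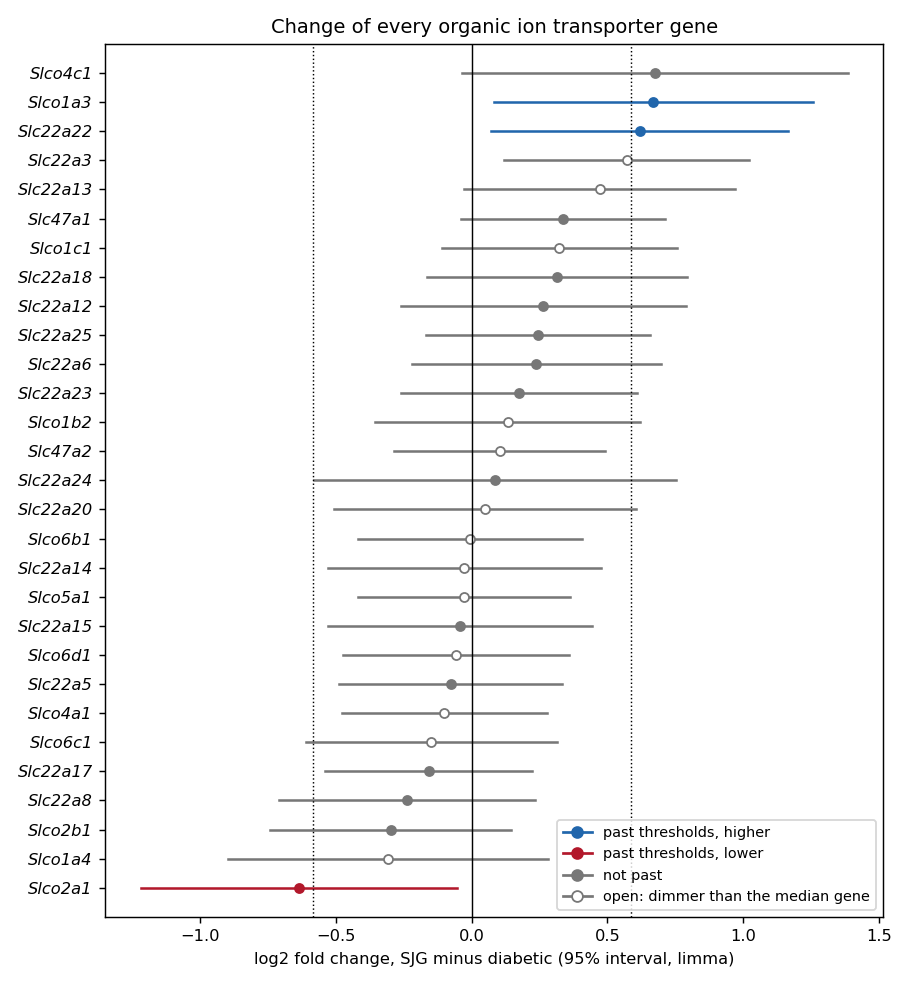
Log2 fold change (SJG minus diabetic, n = 3 arrays per group) of all 29 transporter genes with the 95% interval of the limma fit. Dotted lines mark a fold change of 1.5, open circles mark the 13 genes dimmer than the median gene, and Slco4c1 at 0.67 and Slco2a1 at -0.64 are the ends of the range.

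Of the genes named for prostaglandin transport, Slc22a22 was higher and Slco2a1 was lower with SJG. Slc22a22 encodes OAT-PG, which is known from mouse as a prostaglandin-specific organic anion transporter of the proximal tubule. Replicates 1 to 3 had log2 signals of 10.17, 9.92 and 9.64 with SJG, against 8.80, 9.31 and 9.77 in the diabetic rats. Diabetic replicate 3 lay above the lowest SJG array, so the groups overlapped. The SJG mean of 9.91 ± 0.27 (SD, n = 3) exceeded the diabetic mean of 9.29 ± 0.48 (SD, n = 3) by 1.54-fold (log2 fold change 0.62, standard error 0.249, limma adjusted p = 0.772). The exact permutation p over the 6 arrays was 0.2, where 0.1 is the smallest that 3 against 3 arrays allow. Slc22a22 no longer passed without SJG replicate 1 (0.49) or 2 (0.61), or without diabetic replicate 1 (0.37) or 2 (0.63). It did not pass with the unmoderated test either.

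Slco2a1 encodes the prostaglandin transporter PGT, which takes up prostaglandins for breakdown and is also made by endothelial cells. Replicates 1 to 3 were at log2 signals of 7.53, 6.63 and 7.21 with SJG and of 8.13, 7.33 and 7.81 in the diabetic rats. Only SJG replicate 1 and diabetic replicate 2 crossed. The SJG mean of 7.12 ± 0.45 (SD, n = 3) was 1.55-fold below the diabetic mean of 7.76 ± 0.40 (SD, n = 3), with a log2 fold change of -0.64, a standard error of 0.264 and a limma adjusted p of 0.772 (exact permutation p = 0.2). The call was lost without SJG replicate 2 (-0.39) or 3 (-0.68), without diabetic replicate 1 (-0.45) or 3 (-0.61), with quantile normalization (-0.59) and with the unmoderated test. Of 6 endothelial markers listed, 4 were measured and 0 passed, and their mean log2 signal was 7.28 to 7.33 with SJG and 7.25 to 7.62 in the diabetic rats. This mean covers log2 fold changes of both signs, -0.37 for Cdh5, -0.32 for Emcn, 0.34 for Vwf and 0.04 for Tek. Emcn was lower on every SJG array than on any diabetic array, as were 5.3% of all genes. The lowest mean log2 signal of these 4 was 5.13 (Vwf), below the median gene at 5.60.

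Within an array, the log2 signal of Slc22a22 minus that of Slco2a1 does not depend on how the array was scaled by a constant. In replicates 1 to 3 this difference was 2.64, 3.29 and 2.43 with SJG, against 0.67, 1.98 and 1.96 in the diabetic rats. Every SJG array lay above every diabetic array. The pair was chosen after its values had been seen, and the difference of 1.25 between the group means is a description without a test. The start regions of these genes, and of Slco4c1, the member with the largest log2 fold change, differ in composition. They are shown 5′ to 3′ from RefSeq (GRCr8), 250 bases before to 50 bases after the annotated start, with GC boxes (GGGCGG) and TATA boxes (TATAAA) on either strand in capitals. The Slc22a22 window is chr7:90639646-90639945 on the minus strand, the Slco2a1 window is chr8:112467489-112467788 on the plus strand, and the Slco4c1 window is chr9:104676413-104676712 on the minus strand.
Slc22a22: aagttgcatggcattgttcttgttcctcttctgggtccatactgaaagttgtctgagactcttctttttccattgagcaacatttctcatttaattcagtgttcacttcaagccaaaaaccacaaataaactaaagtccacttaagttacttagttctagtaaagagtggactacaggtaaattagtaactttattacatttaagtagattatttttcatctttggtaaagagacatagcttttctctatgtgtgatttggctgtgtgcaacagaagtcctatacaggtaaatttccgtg
Slco2a1: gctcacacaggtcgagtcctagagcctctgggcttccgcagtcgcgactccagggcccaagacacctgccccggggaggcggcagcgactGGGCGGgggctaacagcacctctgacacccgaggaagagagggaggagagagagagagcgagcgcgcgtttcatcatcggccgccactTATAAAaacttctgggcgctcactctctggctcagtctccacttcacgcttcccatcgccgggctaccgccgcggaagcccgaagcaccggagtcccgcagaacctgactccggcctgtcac
Slco4c1: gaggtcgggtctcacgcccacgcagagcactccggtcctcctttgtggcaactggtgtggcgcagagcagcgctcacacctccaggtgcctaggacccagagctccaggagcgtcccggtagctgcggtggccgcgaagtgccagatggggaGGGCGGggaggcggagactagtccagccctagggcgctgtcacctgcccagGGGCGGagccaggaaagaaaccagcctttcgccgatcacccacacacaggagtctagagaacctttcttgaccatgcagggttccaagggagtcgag
Bases G and C make up 34.7% of the Slc22a22 window, 65.0% of the Slco2a1 window and 64.7% of the Slco4c1 window, against a median of 51.7% over 33469 promoters. The Slco4c1 window holds 2 GC boxes, the Slco2a1 window holds 1 GC box and 1 TATA box, and the Slc22a22 window holds neither. Promoter windows were given for 24 of the 29 members. Of these, 7 hold a GC box (33.1% of all promoters), 4 a TATA box (14.2%), 4 the half-site GTTAAT of the HNF1 factors (7.45%) and 5 the nuclear receptor half-site AGGTCA (16.2%), on either strand. The 6-letter motifs were searched separately and overlaps between them were allowed. A match describes the letters only.

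Slco1a3 and Slco4c1, a pair of kidney OATPs, were both highest in SJG replicate 1 and lowest in diabetic replicate 2. Slco1a3 encodes the rat kidney carrier known as OAT-K, which transports methotrexate and bile acids. Replicates 1 to 3 of Slco1a3 had log2 signals of 10.29, 9.86 and 9.59 with SJG and of 9.01, 8.90 and 9.82 in the diabetic rats. Diabetic replicates 1 and 2 lay below all SJG arrays, and diabetic replicate 3 lay among them. From a diabetic mean of 9.24 ± 0.50 (SD, n = 3) to an SJG mean of 9.91 ± 0.35 (SD, n = 3), Slco1a3 was 1.59-fold higher (log2 fold change 0.67, standard error 0.266, limma adjusted p = 0.772, exact permutation p = 0.2). Slco1a3 failed the thresholds without SJG replicate 1 (0.48), diabetic replicate 1 (0.55) or diabetic replicate 2 (0.50), and with the unmoderated test. Genes of the Slco1a group are close copies of each other, and whether the probes of Slco1a3 also bind RNA of its neighbours was not tested.

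Slco4c1 encodes a carrier of digoxin and thyroid hormones on the blood side of the proximal tubule in rats. In replicates 1 to 3 its log2 signal was 8.36, 7.95 and 7.91 with SJG, and 7.17, 6.77 and 8.25 in the diabetic rats. Again diabetic replicate 3 was among the SJG arrays, and the other diabetic arrays were below all of them. The log2 fold change of 0.67 (standard error 0.322) was the largest of the 29 but did not pass (limma adjusted p = 0.772). Slco4c1 passed without diabetic replicate 3, with a log2 fold change of 1.10 and an adjusted p of 0.0419, where its adjusted p ranged up to 0.9995 over the other settings. Without that array 166 of all 18166 genes passed an adjusted p of 0.05, and Slco4c1 was the only member among them. In the same diabetic replicates 1 to 3, the injury gene Havcr1 had log2 signals of 10.37, 9.99 and 6.76, and the part of tubule injury in the transporter values was not tested.

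**Figure D2:**
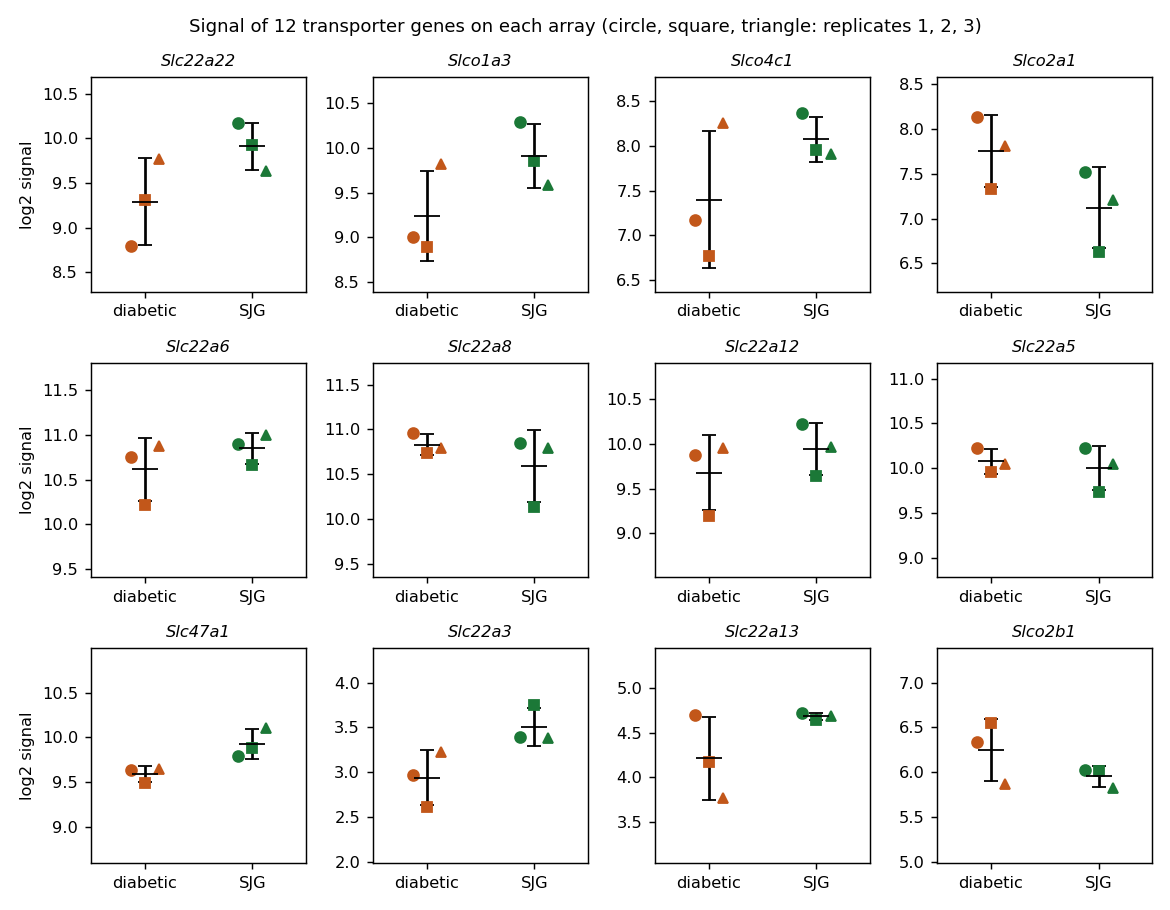
Log2 signal of 12 transporter genes on each array, with replicates 1, 2 and 3 as circle, square and triangle and the group mean ± SD (n = 3 arrays) as bars. All panels span 2.4 log2 units, and the triangle of diabetic replicate 3 lies among the SJG arrays for Slc22a22, Slco1a3 and Slco4c1.

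The main basolateral carriers of organic anions did not pass the thresholds. Slc22a6 (OAT1) had log2 signals of 10.90, 10.66 and 11.00 with SJG and 10.75, 10.22 and 10.88 in the diabetic rats, replicates 1 to 3 in each case. For Slc22a8 (OAT3) the values were 10.85, 10.13 and 10.79 with SJG and 10.96, 10.74 and 10.79 in the diabetic rats. Diabetic replicate 2 was the lowest array for Slc22a6, and SJG replicate 2 was the lowest for Slc22a8. The log2 fold change was 0.24 for Slc22a6 (95% interval -0.22 to 0.70, limma adjusted p = 0.841) and -0.24 for Slc22a8 (95% interval -0.71 to 0.23, limma adjusted p = 0.843). Each interval reaches past a fold change of 1.5 on one side, so changes of that size were not resolved with 3 arrays per group. Leaving out single arrays moved Slc22a6 between 0.039, without diabetic replicate 2, and 0.37, and Slc22a8 between -0.37 and -0.0073, the latter without SJG replicate 2. The urate carrier Slc22a12 had log2 signals of 10.22, 9.64 and 9.97 with SJG and 9.88, 9.19 and 9.96 in the diabetic rats, with overlapping groups (log2 fold change 0.26, 95% interval -0.26 to 0.79, limma adjusted p = 0.843). Without diabetic replicate 2 it differed by 0.023, and the other 5 such values of Slc22a12 reached up to 0.42. Slc22a13, known as OAT10, exchanges urate and nicotinate, and it was at 4.72, 4.65 and 4.68 with SJG and at 4.70, 4.17 and 3.77 in the diabetic rats. The SJG arrays of Slc22a13 were close together and the diabetic arrays spread over nearly a log2 unit (log2 fold change 0.47, standard error 0.227, limma adjusted p = 0.772). Without diabetic replicate 1 the log2 fold change of Slc22a13 was 0.71 and it passed. The mean log2 signal of Slc22a13 was 4.45, below the median gene at 5.60, and background is not known here.

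Slc22a24 and Slc22a25 are members of the rodent anion carrier group, of which Slc22a24 is known as a carrier of steroid conjugates. With SJG the former differed by 0.09 on the log2 scale (standard error 0.302) and the latter by 0.24 (standard error 0.187), and neither passed. For Slc22a20, known from mouse as OAT6 of the olfactory mucosa, the log2 fold change was 0.05 (standard error 0.253) at a low signal. Of the 8 organic anion carriers of Slc22, 7 had a higher mean with SJG and 1, Slc22a8, had a lower one, and 1 passed as higher, where 50.3% of all genes had a higher mean and 0.991% passed as higher. Quantile normalization gave the same 7 to 1 split of means. Median centring did too, but it shifts all log2 fold changes alike, by less than any of these, and could not alter the split. The split depended on single arrays. Without diabetic replicate 2, Slc22a24 and Slc22a20 had lower means with SJG, and Slc22a6 and Slc22a12 differed by only 0.039 and 0.023. Slc22a24 also had a lower mean without SJG replicate 1. On all 6 arrays, the median log2 fold change of these 8 genes was 0.24. In the GRCr8 gene order, Slc22a25, Slc22a8 and Slc22a6 follow each other on chromosome 1 with no other coding gene starting between them, and the annotated span of Slc22a25 overlaps that of Slc22a8. Probe positions were not used here, so shared signal between these overlapping genes was not tested.

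Of the carriers of cations, Slc22a3 and Slc47a1 separated the groups. Slc22a3 encodes OCT3, an organic cation transporter also known for uptake of monoamines. Its log2 signal was 3.39, 3.75 and 3.38 with SJG and 2.96, 2.61 and 3.23 in the diabetic rats, with every SJG array above every diabetic array. With a standard error of 0.205 and a limma adjusted p of 0.752, the log2 fold change of 0.57 fell just short of the fold threshold of 0.585 on the log2 scale. The signal is low for this array, and background is not known here. Slc22a3 passed without SJG replicate 1 (0.63) or 3 (0.63) and without diabetic replicate 1 (0.59) or 3 (0.72). Slc47a1, the extruder MATE1, was at 9.79, 9.88 and 10.11 with SJG and at 9.64, 9.48 and 9.64 in the diabetic rats. These groups did not overlap either, and the 1.26-fold difference (log2 fold change 0.34, standard error 0.170, limma adjusted p = 0.772) did not pass. An exact permutation test of 3 against 3 arrays gives every gene with non-overlapping groups its smallest two-sided p, 0.1. For both genes this p thus restates the non-overlap and adds nothing to it. Non-overlap with higher SJG arrays was seen in 2 of the 29 members and in 5.2% of all genes, and with lower SJG arrays in 0 members and in 5.3% of all genes.

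Slc22a5, the carnitine transporter, had log2 signals of 10.22, 9.73 and 10.04 with SJG and 10.23, 9.95 and 10.05 in the diabetic rats. The groups overlapped, and the log2 fold change was -0.08 (95% interval -0.49 to 0.33, limma adjusted p = 0.945). This interval leaves out a fold change of 1.5 in either direction. Slc22a15, linked in human to zwitterions such as carnitine and ergothioneine, had a log2 fold change of -0.04 (95% interval -0.53 to 0.44). Slc47a2, next to Slc47a1 on chromosome 10, was at 4.55, 4.88 and 4.64 with SJG and at 4.70, 4.41 and 4.64 in the diabetic rats, a difference of 0.10 (95% interval -0.28 to 0.49). The neighbours thus had separated groups in one case and overlapping groups in the other, and the difference between their changes was not tested. Slc47a2 had a mean log2 signal of 4.64, below the median gene at 5.60, and Slc47a1 one of 9.76.

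The other Slco members did not pass. Slco2b1, a widely expressed carrier of steroid sulfates, had log2 signals of 6.02, 6.01 and 5.82 with SJG and 6.33, 6.55 and 5.87 in the diabetic rats, with diabetic replicate 3 inside the SJG range. The log2 fold change was -0.30 (95% interval -0.74 to 0.15). Slco4a1, a carrier of thyroid hormones, was at 4.83, 4.79 and 4.83 with SJG and 5.13, 4.85 and 4.76 in the diabetic rats, with a log2 fold change of -0.10 (95% interval -0.48 to 0.28). Slco1c1, the thyroxine carrier of the blood-brain barrier, and Slco1a4, known from liver and brain vessels, differed by 0.32 (standard error 0.197) and by -0.31 (standard error 0.268) on the log2 scale. Slco1b2 of the liver, the orphan Slco5a1 and the testis genes Slco6b1, Slco6c1 and Slco6d1 lay between -0.15 and 0.13. These 7 genes had mean log2 signals of 2.44 to 4.08, below the median gene at 5.60, as did Slco4a1 at 4.86. On chromosome 9, Slco4c1 is followed by the 3 Slco6 genes, whose log2 fold changes were -0.01, -0.15 and -0.06, against 0.67 for Slco4c1, and none of these 4 genes passed. Of the 8 genes of the Slco2 to Slco6 subfamilies, Slco4c1 alone had a higher mean with SJG, also after quantile normalization. Median centring, a shift too small to change the sign of any of them, could not alter this. Without diabetic replicate 1, Slco4a1 and Slco6b1 also had higher means with SJG.

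The remaining Slc22 genes are less well known as carriers, and none passed. Slc22a18, a polyspecific carrier relative, was at 9.04, 8.65 and 9.34 with SJG and 8.68, 8.45 and 8.95 in the diabetic rats (log2 fold change 0.32, standard error 0.217). The orphan Slc22a23 differed by 0.18 on the log2 scale (standard error 0.197). Slc22a17 encodes a receptor of lipocalin 2, the product of Lcn2. Its log2 signal was 6.53, 6.33 and 6.45 with SJG and 6.69, 6.39 and 6.71 in the diabetic rats, a difference of -0.16 (95% interval -0.54 to 0.22), while Lcn2 itself was at 6.23, 5.12 and 6.16 with SJG and at 9.02, 9.11 and 6.15 in the diabetic rats. The spread of Lcn2 over the diabetic arrays had no counterpart of that size in Slc22a17. Slc22a14, known from mouse sperm, was at a low signal and differed by -0.03 on the log2 scale.

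Among the 16 members brighter than the median gene, the arrays took different ranks. Diabetic replicate 2 was the lowest of the 6 arrays in 8 of the 16, against 14.2% of all genes brighter than the median. SJG replicate 2 was the lowest in 5 of the 16, against 39.1% of these genes. Diabetic replicate 2 lay below all SJG arrays in 10 of the 16 members, against 23.4% of the brighter genes, and diabetic replicate 3 did so in 1 member, against 15.1%. Diabetic replicate 3 lay within the SJG range in 12 of the 16, against 60.7% of the brighter genes, and diabetic replicates 1 and 2 did so in 5 members each, against 39.7% and 35.5%. Diabetic replicate 1 lay below all SJG arrays in 5 members, against 28.0% of the brighter genes, and above all of them in 6, against 32.3%. Diabetic replicates 2 and 3 lay above all SJG arrays in 1 and 3 members, against 41.0% and 24.2%.

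**Figure D3:**
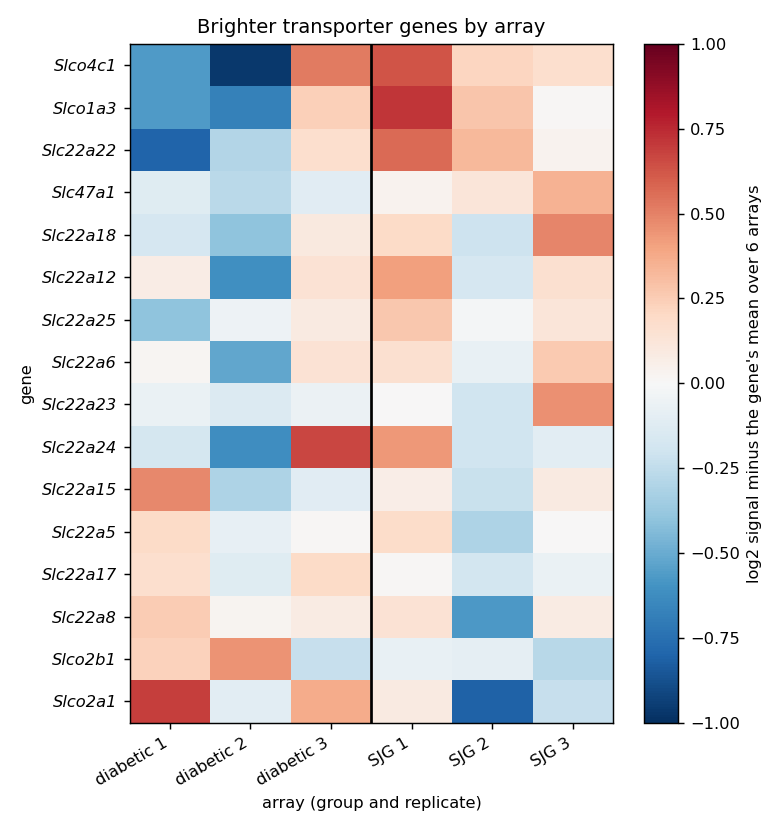
Log2 signal minus the mean over the 6 arrays (colour) for the 16 transporter genes brighter than the median gene (rows, ordered by log2 fold change) on each array (columns). Diabetic replicate 2 is the lowest array in 8 rows, and diabetic replicate 3 resembles the SJG arrays in the top 3 rows.

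The same arrays differed in markers of other cell states. Of 10 tubule injury genes, all measured, 6 were lower with SJG, where 2.12% of all genes were, and their mean log2 signal was 8.46, 8.61 and 7.33 in diabetic replicates 1 to 3 and 6.62 to 7.23 with SJG. Of 8 macrophage and myeloid genes, 7 were lower with SJG, with means of 7.72, 8.10 and 6.82 in diabetic replicates 1 to 3 and 6.53 to 6.88 with SJG. Diabetic replicate 3 was thus near or within the SJG range for both lists. Of 12 proximal tubule markers, 11 were measured and 0 passed, with a median log2 fold change of 0.10 and array means of 10.50 to 10.69 in the diabetic rats and 10.32 to 10.92 with SJG. The lowest mean log2 signals of these 3 lists were 4.70 for injury (Sox9), 4.14 for macrophages (Itgam) and 8.14 for proximal tubule genes. Sox9 and Itgam lie below the median gene at 5.60, and background is not known here. Other lists also differed between arrays. Of 8 immediate early genes, which respond to stress and handling, 7 were measured and 4 were lower with SJG, with array means of 7.89, 9.37 and 7.25 in diabetic replicates 1 to 3 and of 6.88 to 7.31 with SJG. Diabetic replicate 2, often the lowest array for the transporters, was the highest here. It was also the highest for the fibroblast list (1 of 5 measured genes lower), at 7.73, where the other arrays lay between 6.52 and 6.83.

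3 marker lists had array means that were higher on every SJG array, and 2 had means that were lower on every SJG array. The red blood cell list (2 of 3 measured genes higher, where 0.991% of all genes were) lay at 6.18 to 7.24 in the diabetic rats and 7.48 to 7.97 with SJG. The adipocyte list (1 of 6 higher) lay at 5.58 to 5.73 and 5.79 to 7.24, with SJG replicate 2 the highest array. The list of the loop of Henle and distal tubule (1 of 7 higher) lay at 8.79 to 9.05 and 9.12 to 9.30. The lower lists were those of injury and of fibroblasts. The injury list reached up to 7.23 with SJG and lay at 7.33 or above in the diabetic rats. The fibroblast list reached up to 6.77 with SJG and lay at 6.80 or above in the diabetic rats. Of 7 collecting duct genes 1 was higher, and 0 of 4 measured podocyte and 0 of 6 hepatocyte genes passed. The part of injury, handling and other cells in the transporter values was not tested.

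**Figure D4:**
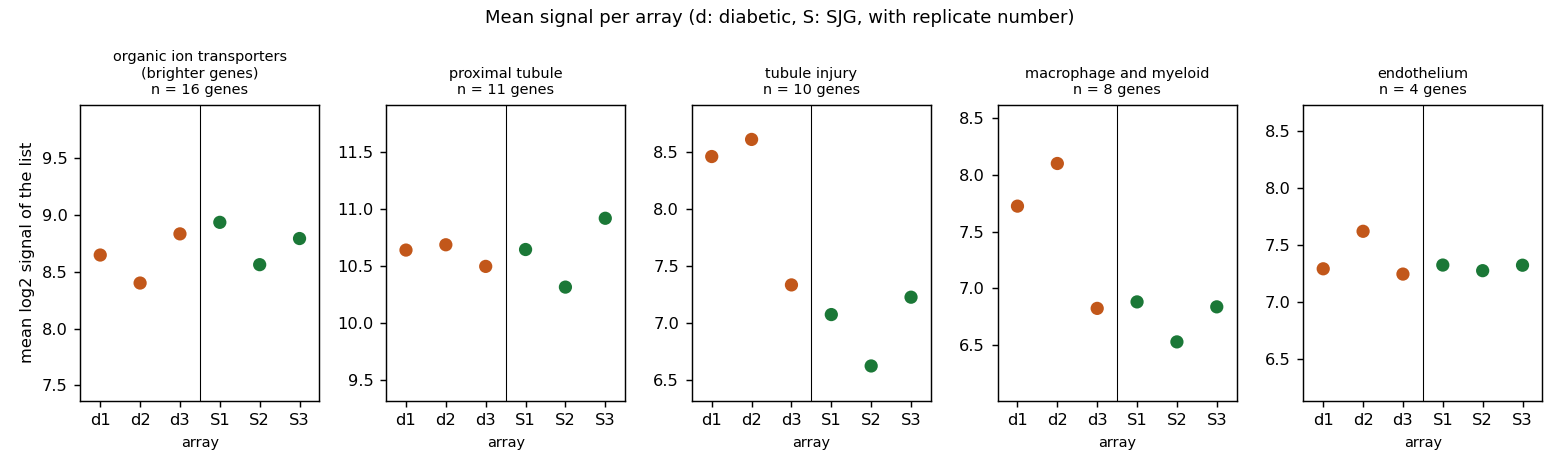
Mean log2 signal per array of the 16 brighter transporters and of 4 marker lists (d: diabetic, S: SJG, with the replicate number), each panel spanning 2.6 log2 units. The injury and macrophage lists are high in diabetic replicates 1 and 2 only, while the proximal tubule list lies between 10.32 and 10.92 on all arrays.

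Partner genes were described from lists. Of 7 measured ABC pumps that export organic ions, 1 was lower with SJG (2.12% of all genes) and none was higher (0.991% of all genes). This was Abcb1b, which encodes a P-glycoprotein, with log2 signals of 6.26, 5.61 and 6.51 with SJG and 7.54, 7.31 and 6.77 in the diabetic rats (log2 fold change -1.07, standard error 0.264, limma adjusted p = 0.711). All SJG arrays of Abcb1b lay below all diabetic arrays, as did those of Abcc3 (log2 fold change -0.46), against 5.3% of all genes. Those of Abcb1a lay above all diabetic arrays (log2 fold change 0.21), against 5.2% of all genes. Of 7 measured exchange and scaffold partners, such as the dicarboxylate carrier Slc13a3 and the scaffold Pdzk1, 0 passed, and the smallest p was that of Slc51a, a subunit of the basolateral bile acid exporter (log2 fold change 0.27, limma adjusted p = 0.822). Of 5 measured genes of urate handling outside the members, 1 was lower (2.12% of all genes), the anion carrier Slc17a4. Its log2 signals were 5.88, 5.28 and 6.06 with SJG and 7.11, 6.93 and 5.69 in the diabetic rats. The log2 fold change of Slc17a4 was -0.84 (standard error 0.343, limma adjusted p = 0.772). Here diabetic replicate 3 lay within the SJG range.
Among 12 measured regulators of transporter transcription, 0 passed. Cebpb, an acute phase regulator, had the smallest p (log2 fold change -0.38, limma adjusted p = 0.772), and Hnf4a, which drives many proximal tubule carriers, differed by 0.10 on the log2 scale (standard error 0.195). Of 6 hormone receptors tied to sex-dependent renal transport, 0 passed. The prolactin receptor gene Prlr had the smallest p, with log2 signals of 7.79, 7.50 and 7.67 with SJG and 7.30, 6.94 and 7.19 in the diabetic rats (log2 fold change 0.51, limma adjusted p = 0.747). Its groups did not overlap, and its change stayed under the fold threshold. Among these 6 receptors, Esr1 was also higher on every SJG array than on any diabetic array (log2 fold change 0.39). Igf1r was lower on every SJG array (log2 fold change -0.25). Of all genes, 5.2% were separated as higher and 5.3% as lower. The median log2 fold changes of the 5 partner lists lay between -0.30 for urate handling and 0.19 for the hormone receptors.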

How the data were processed

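Total kidney RNA, from the cortex by the paper's methods, was extracted, converted to cDNA, labelled with biotin and hybridised to Affymetrix Rat Gene 2.0 ST arrays. The authors deposited log-scale signals of 36685 transcript clusters on each array, and these were read as log2 since the highest is 13.7. Background correction, normalization method and software were steps not given in the sources used here. No further normalization was applied to the deposited log2 signals. The arrays carry no detection call, and the number of arrays limits the precision. Value columns left unused numbered 0.

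Transcript clusters were named from the platform annotation (18511 with 1 gene, 575 with several, 17599 with none), with symbols updated by gene number against GRCr8 for 18394. Where a gene had several, the brightest on average was kept, giving 18166 genes. Groups came from the sample titles. All genes were fitted in R 4.3.3 with limma 3.58.1 (lmFit and eBayes, prior degrees of freedom 6.94), without a replicate block, and adjusted by Benjamini-Hochberg. All adjusted p-values are from limma unless the unmoderated test is named. Thresholds were those of the paper, whose description of the arrays names no test of its own. Exact permutation tests were two-sided.

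The members, gene lists and tests were chosen with earlier results of these data known. Named members are those past the thresholds, those at an unadjusted p under 0.05, a list of well-known renal carriers and the 5 largest changes among the others, and further members are named to account for all 29. Partner genes are those past the thresholds or with the smallest p of their list, and Slc13a3, Pdzk1, Hnf4a, Havcr1 and Lcn2 were named besides. Alternatives were quantile normalization, median centring, genes above the median signal, averaging the transcript clusters of a gene, the unmoderated test, trend and robust variance, array weights, a replicate block, fold changes of 1.2 and 2, and leaving out each array. The code was tested on simulated data.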

Additional observations from a re-analysis of the deposited data

How the results depend on the processing

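With the values as deposited 2 transporters were higher and 1 was lower. With quantile normalization 2 were higher and 0 lower, where 194 and 298 of all 18166 genes were. With the unmoderated test 0 were higher and 0 lower, where 76 and 77 of all genes were. At a fold change of 2 the counts were again 0 and 0, where 25 and 81 of all genes passed. With so few genes passing, a count of 0 says little about the members. Leaving out each array in turn gave 0 to 4 higher and 0 to 1 lower members (without SJG replicate 3 this was Slco1a4 and not Slco2a1), and a median log2 fold change of -0.066 to 0.17. Without diabetic replicate 2, which was often the lowest array, 0 were higher, and without diabetic replicate 3, 4 were higher (Slc22a22, Slc22a3, Slco1a3 and Slco4c1). Over all genes 170 were then higher and 233 lower without the former array, and 435 and 1014 without the latter. With the replicate number as a block, 3 members were higher, now with Slco4c1 (adjusted p = 0.827), and 1 was lower. Same-numbered arrays did not deviate together (correlations of -0.02, -0.29 and -0.00 across genes), so the numbers are not taken as pairs. Over all genes the block moved the counts from 180 higher and 385 lower to 191 and 443. Across 14 named members and 16 settings, 220 single values were compared. Of these, 190 kept direction and side of the thresholds, 19 lost a call, 9 gained one and 2 reversed. The lost calls were all those of Slc22a22, Slco1a3 and Slco2a1, as only a called member could lose one. The reversals were those of Slc22a5 (-0.19 to 0.056 over the left-out arrays, positive without SJG replicate 2) and Slco4a1 (-0.18 to 0.0082, positive without diabetic replicate 1), neither of which passed. Direction could not change with averaged transcript clusters, the unmoderated test, trend and robust variance, the block, another fold threshold or brighter genes only. These settings leave the log2 fold change of a member as it was. Array weights took Slc22a22 to 0.57 and below the fold threshold, and passed Slco4c1 (0.66, adjusted p = 0.504). The causes of these changes were not tested. With 3 arrays per group, the 95% interval of a named member that did not pass reached 0.37 to 0.71 log2 units to either side.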
